A study of Homo sapiens with 6 samples.

Results

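The genes described here encode the enzymes that copy the nuclear genome and the ring that holds them on DNA, namely *POLA1*, *POLA2*, *PRIM1* and *PRIM2* of DNA polymerase alpha-primase, *POLE* and *POLE2* of DNA polymerase epsilon, *POLD1*, *POLD2* and *POLD3* of DNA polymerase delta, and *PCNA*. They were chosen by name, and all 10 were among the 58735 genes of the expression table. Wild strain TPC-1 and *RRM2*-OE-TPC-1 cells were compared, with 3 mRNA libraries each, to ask how transcript levels differ when *RRM2* is overexpressed. The TPC-1 line was derived from a human papillary thyroid carcinoma. The *RRM2*-OE-TPC-1 cells are TPC-1 infected with a lentivirus (vector LV18) in which a CMV promoter drives full-length *RRM2*, and they were selected with puromycin. Whether they were a pool or 1 clone is not given in the sources used here. The controls are described as wild strain, with no vector or selection named for them, so that effects of *RRM2* and of infection and selection cannot be told apart. The libraries are described as biological triplicates, but nothing further says how the cultures were separated. For replicates 2 and 3 of *RRM2*-OE-TPC-1 the genotype label reads RRM3 and RRM4, whereas the titles give *RRM2*. *RRM2*, a subunit of ribonucleotide reductase, averaged 8.92 ± 0.346 FPKM (SD, n = 3) in the wild strain against 48.4 ± 1.78 FPKM (SD, n = 3) after infection, and its level was high in all 3 libraries of the latter. These values do not separate transcripts of the introduced *RRM2* from those of the cells' own gene.

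DNA polymerase alpha-primase starts every new strand by laying down a short RNA primer and extending it with a little DNA. Polymerase epsilon then copies the leading strand as part of the replicative helicase assembly, and polymerase delta copies the lagging strand in short fragments. PCNA is a ring of identical subunits that a clamp loader closes around DNA, and it tethers polymerase delta and recruits many other proteins. Ribonucleotide reductase supplies the deoxynucleotides that these polymerases use. Genes of this kind are known to be transcribed mostly around the start of S phase, under E2F factors. In bulk RNA, a larger share of cells in S phase and more RNA per cell cannot be told apart.

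All 10 genes had a higher level in *RRM2*-OE-TPC-1 than in TPC-1, from 1.28-fold for *POLD2* to 3.57-fold for *PCNA* on the ratio of mean FPKM. FPKM divides the fragments on a gene by its length and by the sequencing depth, so that levels of genes of different length can be compared. In the deposited values the depth used was not proportional to the reads on genes. It was 1.03 to 1.05 times those reads in TPC-1 and 0.997 to 1.01 times in *RRM2*-OE-TPC-1. Instead it followed median-of-ratios factors, which scale libraries by the typical gene, at 0.999 to 1.001 relative to them. Each gene was tested with limma on log2(FPKM + 0.1), with Benjamini-Hochberg adjustment over all 13621 genes with at least 0.5 FPKM and at least 10 reads in at least 3 libraries, and the 10 genes passed that minimum in both groups. An adjusted p of 0.05 or less with a higher level was found for 10 of the 10 genes and for 34.9% of all genes tested. A log2 fold change of 1 or more besides was found for 4 of the 10, *PCNA*, *POLE2*, *POLA2* and *PRIM2*, and for 4.48% of all. With a pseudocount of 1 in place of 0.1, which shrinks the change of low genes, the log2 fold changes of *POLE2*, *PRIM2* and *POLA2* were 0.97, 0.97 and 0.70, and *PCNA* alone of the 10 passed both thresholds. In 10 of the 10 the lowest *RRM2*-OE-TPC-1 library lay above the highest TPC-1 library, as it did in 37.3% of all. The median log2 fold change was 0.88 over the 10 genes and 0.01 over all genes tested. Because these 3 counts come from the same 6 libraries, they are 3 views of 1 comparison.

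The 4 promoters printed here are those of *PCNA*, *POLE2* and *POLA2*, whose log2 fold changes were the largest of the clamp, of polymerase epsilon and of polymerase alpha-primase, and that of *POLD2*, whose log2 fold change was the smallest. The sequences are from RefSeq on GRCh38.p14. Each runs 5′ to 3′ on the strand of the gene over 275 bases, from 250 before the annotated transcript start to 25 after it, and covers chr20:5126598-5126872 on the minus strand for *PCNA*, chr14:49688190-49688464 on the minus strand for *POLE2*, chr11:65261712-65261986 on the plus strand for *POLA2* and chr7:44123524-44123798 on the minus strand for *POLD2*. Capitals mark matches on either strand to the CCAAT box or to the E2F letters TTTCCCGC, TTTCGCGC, TTTGCCGC and TTTGGCGC.
PCNA: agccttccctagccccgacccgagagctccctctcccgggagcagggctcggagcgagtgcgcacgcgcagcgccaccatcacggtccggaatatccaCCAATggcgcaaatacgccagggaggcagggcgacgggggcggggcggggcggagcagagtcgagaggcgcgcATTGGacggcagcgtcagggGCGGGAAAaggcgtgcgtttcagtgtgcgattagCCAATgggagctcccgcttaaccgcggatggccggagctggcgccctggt
POLE2: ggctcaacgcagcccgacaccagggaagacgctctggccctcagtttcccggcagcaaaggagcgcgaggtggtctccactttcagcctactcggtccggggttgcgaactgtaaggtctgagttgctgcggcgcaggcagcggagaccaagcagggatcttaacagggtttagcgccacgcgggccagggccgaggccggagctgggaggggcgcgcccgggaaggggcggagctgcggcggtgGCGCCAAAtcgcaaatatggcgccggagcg
POLA2: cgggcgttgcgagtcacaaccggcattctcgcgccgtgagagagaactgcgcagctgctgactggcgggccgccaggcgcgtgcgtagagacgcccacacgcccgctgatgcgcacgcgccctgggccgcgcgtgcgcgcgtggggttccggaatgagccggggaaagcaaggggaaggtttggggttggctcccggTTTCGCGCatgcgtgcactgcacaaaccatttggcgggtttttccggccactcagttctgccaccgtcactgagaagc
POLD2: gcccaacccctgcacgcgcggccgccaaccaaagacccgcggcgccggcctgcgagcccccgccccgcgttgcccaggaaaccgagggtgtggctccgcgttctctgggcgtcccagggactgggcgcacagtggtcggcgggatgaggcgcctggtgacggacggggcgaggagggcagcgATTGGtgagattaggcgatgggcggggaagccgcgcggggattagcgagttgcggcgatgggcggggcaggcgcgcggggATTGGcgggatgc

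In the windows of 300 bases used for counting, from 250 before the start to 50 after it, 9 of the 10 genes had an entry, and *POLD3* had none in the RefSeq table. The E2F letters were in 5 of the 9 windows and in 3.31% of the 35116 promoter windows of the table. Those 35116 windows hold every start, so that a gene can enter more than once, and were not limited to tested genes. The shares are therefore a description, and enrichment was not tested. They lay at -59 to -52 in *PCNA*, -5 to 3 in *POLE2*, -53 to -46 in *POLA2*, -18 to -11 in *POLE* and -137 to -130 in *POLA1*, counted from 1 at the transcript start with no position 0. In *PCNA* the E2F match overlapped a GC box, whose letters are GGGCGG. The CCAAT box, which is these letters themselves, was in 5 of the 9 windows against 34.6% of all, and the GC box in 6 of 9 against 45% of all. The letters TTTGAA and TTCGAA of the cell cycle homology region, which marks many genes of G2 and mitosis, were in 0 of 9 against 16.4% of all. The 5 genes with the E2F letters had log2 fold changes of 1.83, 1.26, 1.21, 0.76 and 0.44, and the 4 without them had 1.20, 0.91, 0.85 and 0.36, so that the ranges overlapped. *PRIM2*, with 1.20, had none of these motifs in its window. For *PCNA*, *POLD1* and *PRIM2* the table held 2 transcript starts, and the one nearest to the gene start of the expression table was used. The other windows held 2 CCAAT boxes and 2 GC boxes in *PCNA* and 0 matches in *POLD1* and *PRIM2*. The start used lay 810 bases from the gene start of the expression table in *POLD2*, 208 in *POLE2* and 200 in *POLA2*. In the remaining genes it lay 119 bases or less away. The window of *POLD2* thus does not reach that gene start.

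**Figure D1:**
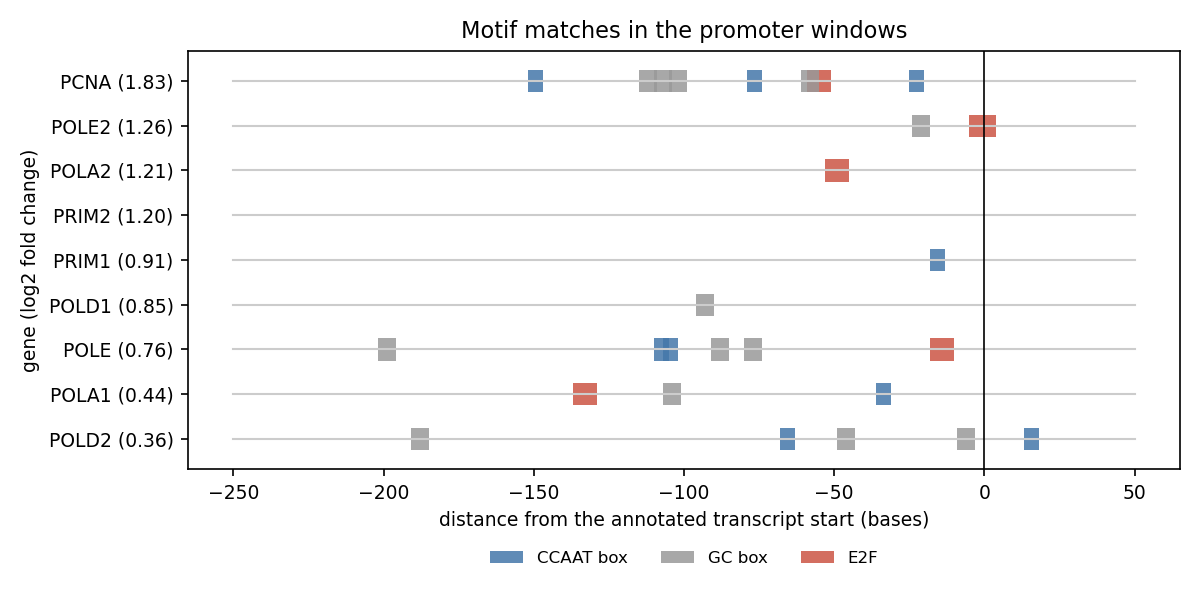
Matches to the E2F letters, CCAAT and the GC box along the 9 promoter windows, by distance from the annotated transcript start in bases, with genes ordered by their log2 fold change (in parentheses). E2F matches lie between positions -59 and 3 in *PCNA*, *POLE2*, *POLA2* and *POLE* and further upstream in *POLA1*, and the windows of *PRIM1*, *PRIM2*, *POLD1* and *POLD2* have none.

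*PCNA* (ENSG00000132646; chromosome 20, 5114953 to 5126626 of GRCh38, minus strand) encodes the sliding clamp. Its FPKM was 35.0, 34.4 and 33.0 in the TPC-1 libraries and 122.7, 119.4 and 122.9 in those of *RRM2*-OE-TPC-1. The libraries of each group lay close together and the groups were far apart. The means were 34.1 ± 1.01 (SD, n = 3) and 121.7 ± 1.94 (SD, n = 3), a log2 fold change of 1.83 (limma adjusted p = 1.14e-08, SE 0.0340). Of the 10 genes it had the largest change and the smallest standard error, and its 95% interval, 1.75 to 1.91, did not meet that of any of the others. A change above 1 on the log2 scale was itself tested with limma's treat, and *PCNA* was the only one of the 10 that passed (adjusted p = 1.98e-06). By the FPKM as deposited it was also the highest of the 10 in both groups, and 774 to 3009 reads lay behind each value. With the length of the principal transcript *POLD2* stood above it in TPC-1, as given below. The pseudogenes *PCNAP1*, *PCNAP3* and *PCNAP4*, to which reads of *PCNA* could have been assigned, were listed at 0 in all 6 libraries.

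Polymerase alpha-primase had its largest changes outside the catalytic polymerase subunit. *POLA1* (ENSG00000101868; chromosome X, 24693919 to 24996986, plus strand), the catalytic subunit, had 4.36, 4.75 and 4.44 FPKM in TPC-1 and 6.05, 6.59 and 5.89 FPKM in *RRM2*-OE-TPC-1. The groups did not overlap, but the step was small, a log2 fold change of 0.44 (limma adjusted p = 0.000447, SE 0.0654). *POLA2* (ENSG00000014138; chromosome 11, 65261762 to 65305589, plus strand), the accessory B subunit, had 0.691, 0.820 and 0.658 FPKM in TPC-1 and 1.85, 1.79 and 1.75 FPKM in *RRM2*-OE-TPC-1. It was the lowest of the 10 in both groups and rested on 60 to 79 reads in each TPC-1 library, and its log2 fold change of 1.21 (limma adjusted p = 4.74e-05, SE 0.121) was the least precise of the 10. The 95% interval of that change ran from 0.93 to 1.49, and with a pseudocount of 1 the estimate was 0.70. The groups were nevertheless apart in every library.

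The primase subunits, which make the RNA primer, moved further than *POLA1*. *PRIM1* (ENSG00000198056; chromosome 12, 56731596 to 56752373, minus strand), the catalytic primase, had 2.90, 2.95 and 3.32 FPKM in TPC-1 and 5.93, 6.11 and 5.43 FPKM in *RRM2*-OE-TPC-1. Its log2 fold change was 0.91 (limma adjusted p = 1.93e-05, SE 0.0777). *PRIM2* (ENSG00000146143; chromosome 6, 57314805 to 57646849, plus strand), the accessory primase subunit that carries an iron-sulfur cluster, had 2.34, 2.66 and 2.66 FPKM in TPC-1 and 5.65, 5.88 and 6.43 FPKM in *RRM2*-OE-TPC-1. Its log2 fold change was 1.20 (limma adjusted p = 5.34e-06, SE 0.0810). In TPC-1 the level of *PRIM2* lay below that of *PRIM1* in every library, while in *RRM2*-OE-TPC-1 the levels of these genes overlapped.

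Of polymerase epsilon, *POLE* (ENSG00000177084; chromosome 12, 132623753 to 132687365, minus strand) encodes the catalytic subunit. It had 5.41, 5.72 and 5.24 FPKM in TPC-1 and 9.28, 9.27 and 9.26 FPKM in *RRM2*-OE-TPC-1. Its log2 fold change was 0.76 (limma adjusted p = 5.00e-06, SE 0.0504). The 3 *RRM2*-OE-TPC-1 values of *POLE* lay closer together, with a coefficient of variation of 0.0999%, than the 2.02% that read counting alone gives, so that this spread understates the error. *POLE2* (ENSG00000100479; chromosome 14, 49643555 to 49688422, minus strand), the B subunit, had 1.68, 2.01 and 1.95 FPKM in TPC-1 and 4.31, 4.70 and 4.95 FPKM in *RRM2*-OE-TPC-1. Its log2 fold change of 1.26 (limma adjusted p = 8.96e-06, SE 0.0937) was second to that of *PCNA* among the 10 genes.

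Polymerase delta held the smallest change. *POLD1* (ENSG00000062822; chromosome 19, 50384204 to 50418016, plus strand), the catalytic subunit, had 8.78, 8.42 and 8.99 FPKM in TPC-1 and 16.2, 16.1 and 15.2 FPKM in *RRM2*-OE-TPC-1, a log2 fold change of 0.85 (limma adjusted p = 1.71e-06, SE 0.0459). *POLD2* (ENSG00000106628; chromosome 7, 44114681 to 44124358, minus strand), the B subunit, had 29.9, 28.7 and 27.6 FPKM in TPC-1 and 36.4, 36.3 and 37.6 FPKM in *RRM2*-OE-TPC-1, a log2 fold change of 0.36 (limma adjusted p = 8.38e-05, SE 0.0393). *POLD3* (ENSG00000077514; chromosome 11, 74493851 to 74669117, plus strand), which carries a PCNA-binding motif, had 5.61, 5.76 and 5.35 FPKM in TPC-1 and 8.30, 8.80 and 7.87 FPKM in *RRM2*-OE-TPC-1, a log2 fold change of 0.57 (limma adjusted p = 5.82e-05, SE 0.0590). All 3 genes were apart between the groups. The 95% interval of *POLD2*, 0.26 to 0.45, did not meet that of *POLD1*, 0.74 to 0.95. The pseudogene *POLD2P1* was listed at 0 in all 6 libraries.

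**Figure D2:**
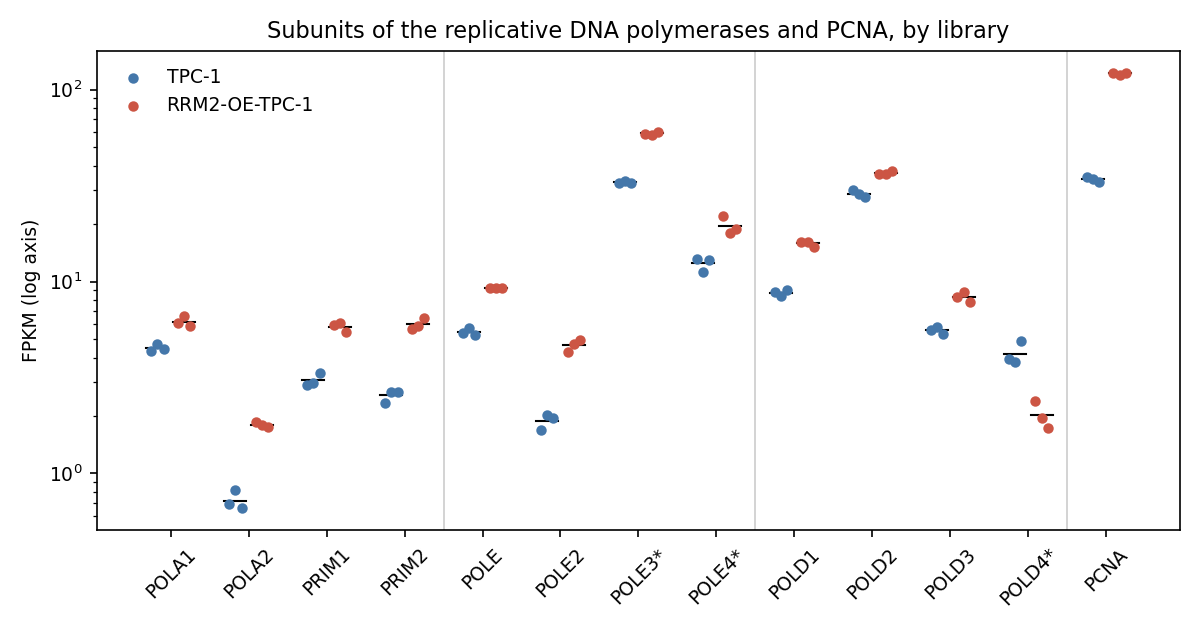
FPKM (log axis) of each gene in each of the 6 libraries, with points for libraries and black lines for group means, in the order polymerase alpha-primase, epsilon, delta and *PCNA*. Asterisks mark *POLE3*, *POLE4* and *POLD4*, the subunits outside the 10 genes; every gene but *POLD4* is higher in all 3 *RRM2*-OE-TPC-1 libraries than in any TPC-1 library.

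The remaining subunits of epsilon and delta were read in the same fit, and 2 of the 3 were higher and 1 was lower. *POLE3*, a histone-fold subunit of polymerase epsilon, rose from 32.9 ± 0.391 to 59.1 ± 0.970 FPKM (mean ± SD, n = 3), a log2 fold change of 0.85 (limma adjusted p = 2.44e-07). *POLE4*, its histone-fold partner, rose from 12.5 ± 1.02 to 19.6 ± 2.14 FPKM (mean ± SD, n = 3), a log2 fold change of 0.65 (limma adjusted p = 0.000256). *POLD4*, the smallest subunit of polymerase delta, which is known to be degraded after DNA damage and on entry into S phase, had 3.97, 3.80 and 4.88 FPKM in TPC-1 and 2.38, 1.95 and 1.73 FPKM in *RRM2*-OE-TPC-1. It was thus lower in all 3 *RRM2*-OE-TPC-1 libraries. Its log2 fold change was -1.03 (limma adjusted p = 0.000244, SE 0.136) and passed both thresholds, as lower, as did 6.97% of all genes tested. Without TPC-1 replicate 3 it was -0.92 and without *RRM2*-OE-TPC-1 replicate 3 it was -0.93, past the threshold on p but not that on the fold change. The call past both was also lost with a pseudocount of 1 (-0.79) and when a change above 1 was itself tested (limma treat, adjusted p = 1).

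**Figure D3:**
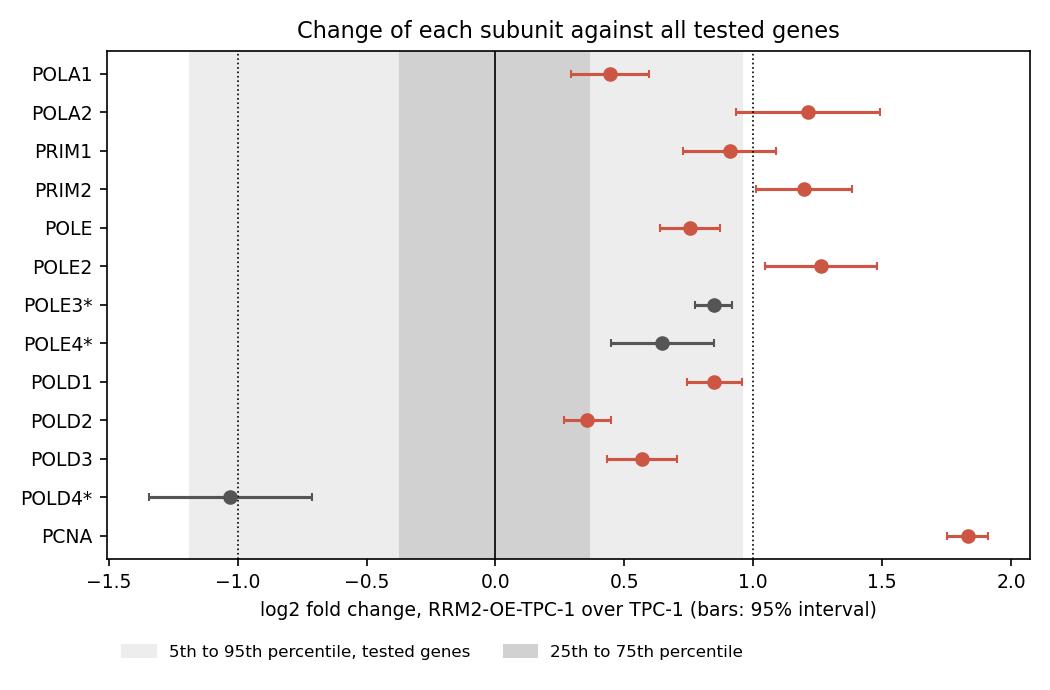
Log2 fold change of each subunit and *PCNA* (points) with its 95% interval from limma (bars), *RRM2*-OE-TPC-1 over TPC-1. The dark band spans the 25th to 75th percentile of all 13621 tested genes, -0.37 to 0.36, the light band their 5th to 95th percentile, -1.18 to 0.95, and dotted lines stand at 1 and -1. *PCNA*, *POLE2*, *POLA2* and *PRIM2* lie above the light band, and *POLD4*, marked like *POLE3* and *POLE4* by an asterisk, is the only one below 0.

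Some exons of these genes are shared with other annotated genes, and how reads in shared exons were counted is not given in the sources used here. On the same strand, *AP000944.2* covers 53.7% of the principal transcript of *POLA2*, *AC117378.1* covers 26.0% of that of *PRIM1*, *AC020909.1* covers 12.4% of that of *POLD1* and *AP003419.1* covers 70.8% of that of *POLD4*. Those genes averaged 0.120 FPKM, 0.0337 FPKM, 0 FPKM and 0.0147 FPKM over the 6 libraries. *PRIM1* also meets *NACA*, at 38.2 FPKM, over 7 bases of its principal transcript on the same strand, and *HSD17B6*, at 0.166 FPKM, over 123 bases on the opposite strand. *AP001372.2*, at 0.789 FPKM, meets *POLD3* over 123 bases outside the principal transcript, and *C9orf43*, at 0.462 FPKM, meets *POLE3* on the opposite strand. Levels of *POLA2*, *PRIM1* and *POLD4*, and their place among the others, are uncertain to that extent, and the part of shared exons in the changes was not tested.

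The order of levels was read within each group, since FPKM divides by gene length. In TPC-1 the mean FPKM fell in the order *PCNA*, *POLD2*, *POLD1*, *POLD3*, *POLE*, *POLA1*, *PRIM1*, *PRIM2*, *POLE2* and *POLA2*, and of the neighbours among these 10 only *POLD3* and *POLE* overlapped in their libraries. In *RRM2*-OE-TPC-1 the order was *PCNA*, *POLD2*, *POLD1*, *POLE*, *POLD3*, *POLA1*, *PRIM2*, *PRIM1*, *POLE2* and *POLA2*, with overlap of *POLA1* with *PRIM2* and of *PRIM2* with *PRIM1*. The lengths in the table are the union of all exons of a gene, which for *POLE* was 16609 bases against 7840 in its principal transcript and for *PCNA* 1471 against 1359. With the principal transcript instead, *POLD2* stood above *PCNA* in TPC-1, at 49.2 against 36.9 FPKM, and below it in *RRM2*-OE-TPC-1, at 63.0 against 131.7 FPKM. The order of levels thus depends on the length used, whereas the fold change of a gene on mean FPKM does not.

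Ratios of FPKM were taken within each library, where scaling and depth cancel, to ask whether subunits of a complex kept their proportions. Of 13 ratios, 7 were higher and 4 lower in every *RRM2*-OE-TPC-1 library than in any TPC-1 library, and 2 overlapped. The ratio of a tested gene to *POLA1*, to *POLE* or to *POLD1* was apart between the groups for 73.6%, 86.5% and 89.4% of all other genes, so that such a separation was common. The two-sided exact permutation test over 3 libraries against 3 cannot give a p under 0.1, and it gave 0.1 (0.118 after adjustment over the 13 ratios) for each of the 11 and 0.2 and 0.4 for the others. None of the ratios could therefore pass the threshold of 0.05, and their sizes with 95% intervals are given as a description. Apart from the pseudocount of 0.1 in the fit, the log2 difference of a ratio is that between the fold changes of its genes. The ratios thus restate the fold changes given above.

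Within polymerase alpha-primase the accessory and primase subunits gained on *POLA1*. The ratio *POLA2*/*POLA1* was 0.158, 0.173 and 0.148 in TPC-1 and 0.306, 0.272 and 0.298 in *RRM2*-OE-TPC-1, a difference of 0.87 on the log2 scale (95% interval 0.64 to 1.10). The ratios were taken without a pseudocount, and with 0.1 FPKM added to both genes this difference was 0.77. The ratio *PRIM2*/*POLA1* had a difference of 0.78 (0.50 to 1.05) and *PRIM1*/*POLA1* one of 0.48 (0.25 to 0.71). In polymerase epsilon, *POLE2*/*POLE* went from 0.345 ± 0.0314 to 0.502 ± 0.0354 (SD, n = 3 each), a difference of 0.54 (0.27 to 0.81). *POLE3*/*POLE*, at 6.03 ± 0.194 and 6.38 ± 0.109 (SD, n = 3 each), differed by 0.08 (-0.0024 to 0.17), and *POLE4*/*POLE* by -0.11 (-0.49 to 0.26) with overlapping libraries.

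Polymerase delta shifted the other way, and its accessory subunits lost ground on *POLD1*. Of all tested genes, 93.3% had a log2 fold change below that of *POLD1*, so that a loss on it was common. The difference on the log2 scale was -0.50 (95% interval -0.69 to -0.31) for *POLD2*/*POLD1* and -0.28 (-0.46 to -0.10) for *POLD3*/*POLD1*. For *POLD4*/*POLD1* the ratio was 0.452, 0.452 and 0.542 in TPC-1 and 0.147, 0.122 and 0.114 in *RRM2*-OE-TPC-1, a difference of -1.92 (-2.31 to -1.53). Between the catalytic subunits, *POLE*/*POLD1* differed by -0.09 (-0.29 to 0.11) with overlapping libraries, and *POLA1*/*POLD1* by -0.40 (-0.61 to -0.20). *PCNA* gained on *POLD1* and on *POLE*. The ratio *PCNA*/*POLD1* went from 3.91 ± 0.215 to 7.70 ± 0.346 and *PCNA*/*POLE* from 6.26 ± 0.231 to 13.1 ± 0.211 (SD, n = 3 each), differences of 0.98 (0.81 to 1.14) and 1.07 (0.97 to 1.16).

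**Figure D4:**
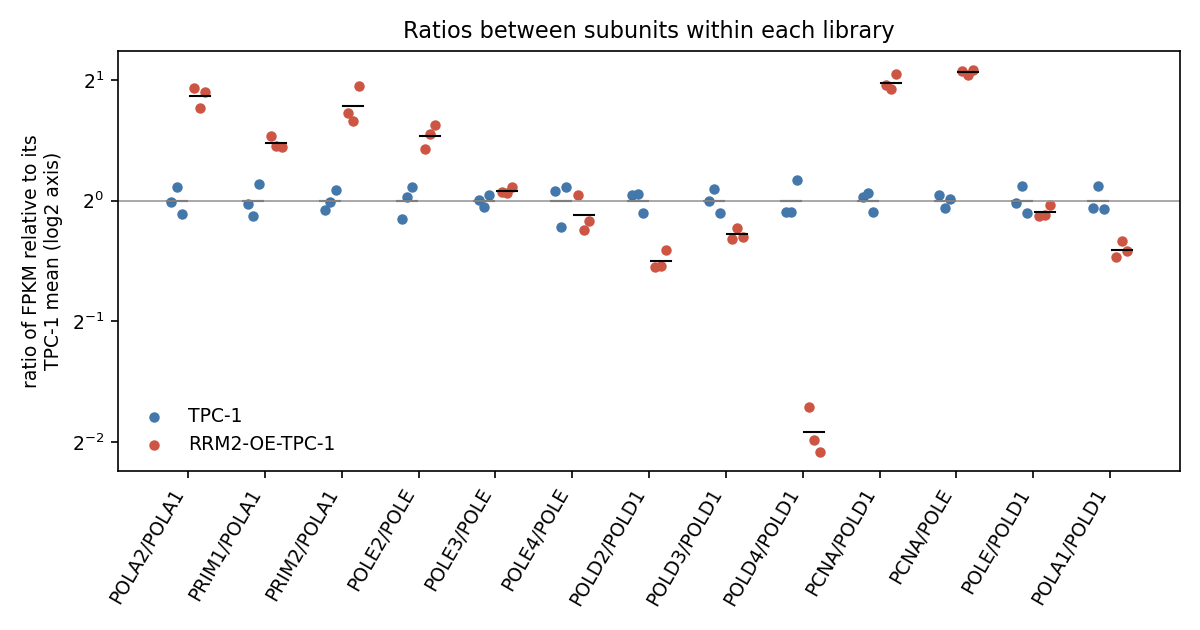
Ratio of the FPKM of a pair of genes in each library, divided by the mean of that ratio in TPC-1 (log2 axis), with points for libraries and black lines for group means. In the *RRM2*-OE-TPC-1 libraries *PCNA*/*POLD1* and *PCNA*/*POLE* stand near a 2-fold gain, *POLD4*/*POLD1* has the largest loss, and *POLE4*/*POLE* and *POLE*/*POLD1* overlap with TPC-1.

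Other genes of DNA replication were read from lists, whose counts are given beside the 34.9% of all tested genes that were higher and the 32.7% that were lower at an adjusted p of 0.05 or less. In the list of clamp loading and unloading, 7 of 9 genes were higher and 0 lower (median log2 fold change 0.65). The largest increase was that of *DSCC1*, a subunit of the alternative loader that serves sister chromatid cohesion, from 3.37 ± 0.541 to 11.0 ± 0.198 FPKM (mean ± SD, n = 3; limma log2 fold change 1.69 with adjusted p = 2.89e-06). In the list of lagging strand factors and PCNA partners, 15 of 19 tested genes were higher and 2 lower (median 0.83), and *RNASEH2A*, at 0.0385 and 0.133 FPKM, did not reach the minimum. At the ends of this list stood *CDKN1A*, whose protein p21 binds PCNA and inhibits cyclin-dependent kinases, and *POLDIP3*, which binds polymerase delta. *CDKN1A* rose from 41.2 ± 1.33 to 207.5 ± 4.45 FPKM (mean ± SD, n = 3; limma log2 fold change 2.33 with adjusted p = 9.81e-09), and *POLDIP3* fell by 0.15 on the log2 scale (limma adjusted p = 0.00535).

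In the list of fork coupling and helicase activation, 13 of 13 genes were higher (median 1.23). The largest increase was that of *CLSPN*, which encodes claspin, a mediator of the replication checkpoint, from 2.03 ± 0.0472 to 9.14 ± 0.245 FPKM (mean ± SD, n = 3; limma log2 fold change 2.12 with adjusted p = 6.79e-08). In a list of cell cycle genes, 8 of 8 were higher (median 0.92), most of all *CCNE2*, a cyclin of the entry into S phase, from 1.48 ± 0.162 to 5.67 ± 0.311 FPKM (mean ± SD, n = 3; limma log2 fold change 1.87 with adjusted p = 1.20e-06). These cell cycle genes moved together with the polymerase genes, and their part in the changes of the polymerase genes was not tested.

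The list of other DNA polymerases, which act in repair, in bypass of damaged bases and in mitochondria, did not lean to one side. Of 14 tested genes, 5 were higher, 4 were lower and 5 did not pass, with a median log2 fold change of -0.04 against 0.88 for the 10 replicative genes. The difference between these medians was not tested. *POLH*, the polymerase that copies past ultraviolet damage and a known p53 target, rose from 6.78 ± 0.373 to 19.8 ± 1.08 FPKM (mean ± SD, n = 3; limma log2 fold change 1.53 with adjusted p = 3.05e-07). *POLI*, a related bypass polymerase, fell from 5.73 ± 0.626 to 2.34 ± 0.109 FPKM (mean ± SD, n = 3; limma log2 fold change -1.25 with adjusted p = 7.29e-06). *POLN* and *DNTT* did not reach the minimum.

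*POLD2* and *POLD3* also serve polymerase zeta, a bypass enzyme built on *REV3L* and *MAD2L2*. *REV3L* had 4.24, 5.40 and 5.06 FPKM in TPC-1 and 4.23, 4.13 and 4.36 FPKM in *RRM2*-OE-TPC-1, and the groups overlapped through TPC-1 replicate 1. Its log2 fold change was -0.20 (95% interval -0.41 to 0.01, limma adjusted p = 0.0881), and without TPC-1 replicate 1 it was -0.30 (adjusted p = 0.0078). *REV3L* also passed when scaled to library totals (adjusted p = 0.0453) and with voom on recovered reads (adjusted p = 0.0101). *MAD2L2*, at 10.9 ± 0.871 and 10.7 ± 0.606 FPKM (SD, n = 3 each), had a log2 fold change of -0.03 (95% interval -0.19 to 0.13, limma adjusted p = 0.698).

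**Figure D5:**
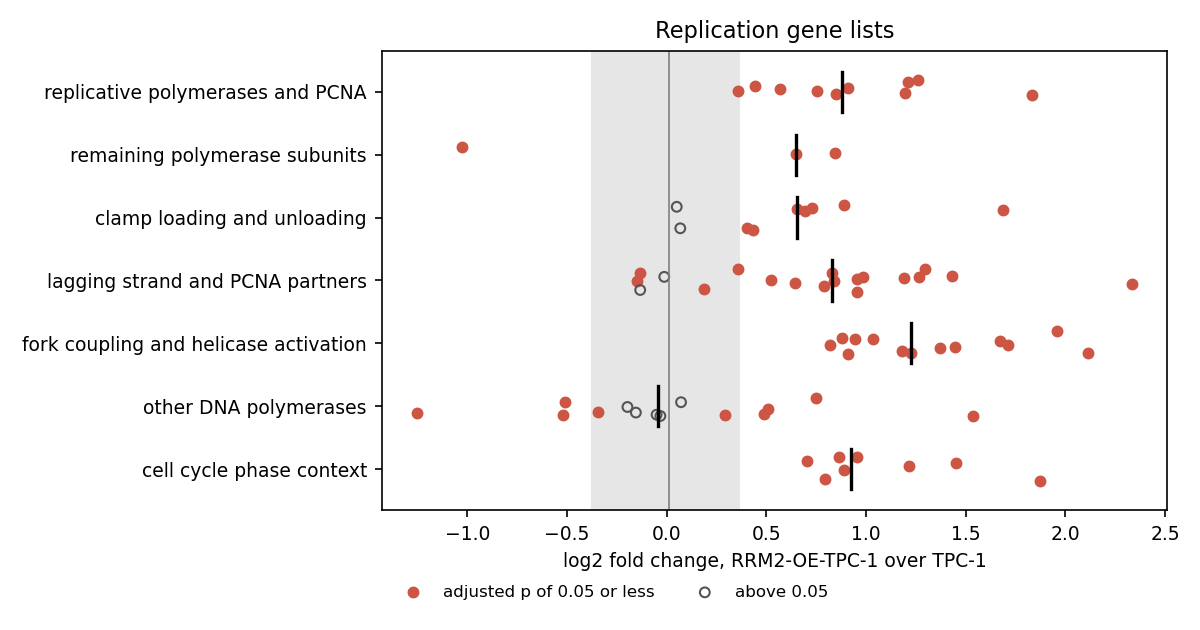
Log2 fold change of each tested gene of the replication lists, *RRM2*-OE-TPC-1 over TPC-1, with filled points at an adjusted p of 0.05 or less, open points above it and a vertical line at each list's median. The grey band spans the 25th to 75th percentile of all tested genes, -0.37 to 0.36. The 13 fork coupling genes, the 10 replicative genes, the 9 clamp loading genes and the 8 cell cycle genes lie right of 0. The remaining polymerase subunits, the lagging strand list and the other DNA polymerases lie on both sides.

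Among the 11441 tested protein-coding genes outside the 10, those with a profile nearest to that of *PCNA* over the 6 libraries were *PTPRB*, *NCEH1*, *ANLN*, *CALD1* and *PRSS23*. The measure was the root mean square difference of log2(FPKM + 0.1) after subtraction of the TPC-1 mean, and it ran from 0.0512 for *PTPRB* to 0.0740 for *PRSS23*. *ANLN*, which encodes the cytokinesis protein anillin, had 22.3, 22.2 and 23.0 FPKM in TPC-1 and 76.3, 79.7 and 78.2 FPKM in *RRM2*-OE-TPC-1. With only 2 groups this measure mainly ranks genes by the likeness of their fold change.

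The depth was 14317091 to 17084067 reads on genes per library, 4.29% to 5.89% of them on mitochondrial genes, and the libraries of a group correlated at 0.990 to 0.992 over tested genes against 0.927 to 0.931 between groups. Of 6 markers of thyroid follicular cells 2 reached 0.5 FPKM, *PAX8* and *FOXE1*, while *NKX2-1* was at 0 and *TG*, *TSHR* and *SLC5A5* were near 0 in both groups. The summed FPKM of the 6 was 71.6 to 75.3 in TPC-1 and 59.7 to 63.1 in *RRM2*-OE-TPC-1. Of 5 epithelial markers 2 reached 0.5 FPKM, *KRT8* and *KRT18*, and the sums over all 5 were 41.9 to 45.8 in TPC-1 and 87.3 to 89.7 in *RRM2*-OE-TPC-1. Of 4 fibroblast markers 2 did (sums over all 4 of 2.78 to 3.16 and 2.78 to 2.94, *COL1A2* at 0). Of 3 endothelial markers 1 did (0.873 to 1.05 and 0.0667 to 0.115) and of 3 leukocyte markers 0 (0 and 0.00637 to 0.0355, *CD3E* at 0).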

How the data were processed

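mRNA of 3 TPC-1 and 3 *RRM2*-OE-TPC-1 libraries was sequenced in paired reads. The methods describe poly(A) selection, whereas the labels describe removal of ribosomal RNA and digestion with RNase R. The authors cleaned the reads with fastp, aligned them with HISAT2 2.0.5, counted them with featureCounts 1.5.0, on GRCh38.p14 per the processing notes, and deposited FPKM values. Whether strand was used in counting is not given in the sources used here. All 58735 genes had the identifier, position and exon union length of GENCODE 29. FPKM multiplied by gene length came out as a whole number of steps in 100% of values (tolerance 0.01 of a step), so reads on genes were recovered (14317091 to 17084067 per library).

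Values were tested as log2(FPKM + 0.1) with limma 3.58.1 in R 4.3.3 (lmFit, eBayes with trend), with Benjamini-Hochberg adjustment over the 13621 genes with at least 0.5 FPKM and 10 reads in 3 libraries. This scale understates the change of low genes. The script was tested on simulated data. Calls needed an adjusted p of 0.05 or less, with or without an absolute log2 fold change of 1. Ratios, with exact permutation tests, and figures used scipy 1.17.1 and matplotlib 3.10.9 in Python 3.11.15, and tables were handled in pandas 2.3.3 with numpy 2.4.6. P-values measure the spread between these libraries, which may be technical.

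The members, lists, motifs and tests were chosen with earlier results of these data known. Named are the 10 genes, *RRM2*, *POLE3*, *POLE4*, *POLD4*, *REV3L*, *MAD2L2*, the called gene with the largest increase and decrease of each other list, genes sharing exons with the named subunits or pseudogenes of them, and the 5 profiles nearest to *PCNA*. *RNASEH2A*, *POLN*, *DNTT* and the cell type markers were named after their values were seen. Alternatives were other pseudocounts, filters and scalings, voom on recovered reads, no variance trend, treat, the replicate number as a block and each library left out in turn. The principal transcript length was added after seeing the data. A planned thyroid marker is not reported here.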

Additional observations from a re-analysis of the deposited data

How the results depend on the processing

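The 10 genes were higher at an adjusted p of 0.05 or less under every alternative run that tests for any change. The number of them past both thresholds was 4, and it was 1 with a pseudocount of 1 and 1 when a change above 1 was itself tested with treat; that gene was *PCNA* in both cases. Under treat *POLA2*, *PRIM2*, *POLE2*, *POLD4* and *POLI* no longer passed. Over all tested genes the number past both thresholds was 1560, against 716 with a pseudocount of 1 and 618 with treat, and in the 5 replication lists it was 18, against 11 with treat. Treat asks for more than the fold threshold does, and a larger pseudocount shrinks the change of low genes. When single libraries were dropped, 4 of the 10 always passed both thresholds. *MAD2L2* ranged from -0.0781 to 0.0310 and changed sign, to 0.0061 without *RRM2*-OE-TPC-1 replicate 3 and to 0.0310 without TPC-1 replicate 1, and it passed in neither case. *REV3L* passed at an adjusted p of 0.0453 when scaled to library totals and of 0.0101 with voom on recovered reads, and the cause was not tested. Scaling to library totals moved the median log2 fold change of all genes by -0.0563. Of 420 log2 fold changes of named genes recomputed under the alternatives other than treat, 415 kept their direction and their side of the threshold on p. Of these, 255 belonged to genes past both thresholds in the reported fit, and 6 of the 255 fell below the fold threshold, those of *POLA2*, *PRIM2*, *POLE2* and *POLD4* with a pseudocount of 1 and of *POLD4* without replicate 3 of either group.

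Libraries of the same replicate number did not deviate together, with correlations of deviations of -0.0105, -0.0060 and -0.0550. These values cannot tell whether the cultures were handled in pairs. With the replicate block, 10 of the 10 genes were higher and 4 passed both thresholds, and 8934 of all tested genes passed the threshold on p, against 9207 without the block. The depth limits *POLA2* most, with 60 to 79 reads in each TPC-1 library.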
